A study of Mus musculus with 9 samples.

Results

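The 10 genes described here, Ccl2, Ccl3, Ccl4, Ccl5, Ccl6, Ccl7, Ccl9, Ccl22, Cxcl2 and Cxcl10, encode chemokines. They were chosen by name, as the rows of the gene tables that carry these symbols, and they are 10 of 55274 gene identifiers. All were measured by RNA-seq in 9 libraries of mouse bone marrow cells, as FPKM, a fragment count divided by transcript length and by library size. Because FPKM are set per length, levels of different genes can be compared with each other. The cells came from C57BL6/J donors that had received 5-fluorouracil at 150 mg/kg, and marrow was taken on day 4. They were pre-stimulated for 48 h with human interleukin-6 (10 ng/mL), murine interleukin-3 (6 ng/mL) and murine stem cell factor (20 ng/mL). After transduction with retroviral vectors they were sorted by fluorochrome and expanded before RNA was isolated. 3 libraries carried NRASG12D in an MSCV-IRES-BFP vector, 3 carried the NUP98-NSD1 fusion in an MSCV-IRES-GFP vector, and 3 carried both vectors. NRASG12D is an active form of a RAS signalling protein. In NUP98-NSD1, part of a nucleoporin is fused to an enzyme that methylates histones. No library of untransduced cells or of an empty vector was analysed here, so each value stands only against the other transduced groups. The paper describes the NRASG12D cells as mostly mast cells. The sources do not say whether the 3 libraries of a group came from separate animals or cultures, so p-values measure the spread between these libraries, which may be technical.

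Chemokines are small secreted proteins that guide the migration of leukocytes through G protein-coupled receptors. The family is named after its first cysteines, which are adjacent in the CC chemokines and are separated by another residue in the CXC chemokines. In bone marrow and blood they are known as products of activated monocytes, macrophages, neutrophils and mast cells. Many chemokine genes are induced by NF-kB, some by interferons, and several of their mRNAs are short-lived because of AU-rich elements in the 3′ untranslated region.

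The codons below show this division of the family. Each line holds 30 bases of coding sequence, 5′ to 3′, read from the GENCODE M21 transcripts on GRCm38, with the codons of the first cysteine pair in capitals. In Ccl2 (chr11:82036494-82036523, plus strand) and Ccl6 (chr11:83589374-83589403, minus strand) the capitals are adjacent. In Cxcl2 (chr5:90904130-90904159, plus strand) and Cxcl10 (chr5:92348172-92348201, minus strand) 1 codon lies between them.
Ccl2: gccccactcaccTGCTGCtactcattcacc
Ccl6: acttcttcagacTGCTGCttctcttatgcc
Cxcl2: agtgaactgcgcTGTcaaTGCctgaagacc
Cxcl10: aggacggtccgcTGCaacTGCatccatatc
The same search placed the 8 Ccl genes with 0 codons and the 2 Cxcl genes with 1 codon between the pair.

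The depth of the libraries, estimated from the steps between low FPKM values, ran from 22400000 to 35200000 fragments. At these depths 3 fragments correspond to 0.0284 to 0.203 FPKM, depending on the member and the library, a floor that covers counting error only. Levels under this floor were found for Ccl5 in 2 libraries, for Cxcl2 in 2 and for Ccl22 in 1, all of NRASG12D. All 10 members passed the filter on low values, which asked for 1 FPKM or more in 3 or more of 9 libraries. Ccl5, Ccl22, Cxcl2 and Cxcl10 stayed below 1 FPKM in every NRASG12D library and passed only through the other groups. Ccl3, Ccl4, Ccl6 and Ccl9 reached 1 FPKM in only some NRASG12D libraries and also needed the other groups to pass. The NUP98-NSD1+NRASG12D libraries differed most from each other, with 8.76% to 14.3% of the tested genes more than 2-fold apart between a pair of libraries, against 1.03% to 3.64% in the other groups. Of the mast cell markers, 8 of 9 were above 1 FPKM in every NRASG12D library, while Cpa3 was listed at 0 in all 3. An exact 0 of such an abundant marker can be a failed estimate, so values listed at 0 are given below as listed. In these bulk samples, fewer cells of a type and less RNA per cell cannot be told apart.

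The summed level of the chemokine transcripts and its makeup are given first. Summed over the 10 genes, the NRASG12D libraries had 391, 949 and 472 FPKM, the NUP98-NSD1 libraries 1116, 1215 and 1051 FPKM, and the NUP98-NSD1+NRASG12D libraries 891, 6712 and 6587 FPKM. The sums of NUP98-NSD1 lay above those of NRASG12D without overlap, while replicate 1 of NUP98-NSD1+NRASG12D lay within the range of NRASG12D. In NRASG12D cells, Ccl2 alone made up 97.7%, 77.9% and 95.7% of the sum. Its share was 47.8%, 38.5% and 62.1% in NUP98-NSD1 cells and 17.8%, 21.8% and 9.58% in NUP98-NSD1+NRASG12D cells. In NRASG12D cells Ccl7 held most of the remainder, at 1.54%, 19.2% and 3.66% of the sum. In both groups with NUP98-NSD1 most of it belonged to 4 genes of the second chromosome 11 cluster, Ccl3, Ccl4, Ccl6 and Ccl9. The joint share of these 4 was 0.713%, 2.74% and 0.531% in NRASG12D, 42.9%, 50.7% and 24.6% in NUP98-NSD1, and 70.5%, 58.3% and 83.9% in NUP98-NSD1+NRASG12D libraries.

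**Figure D1:**
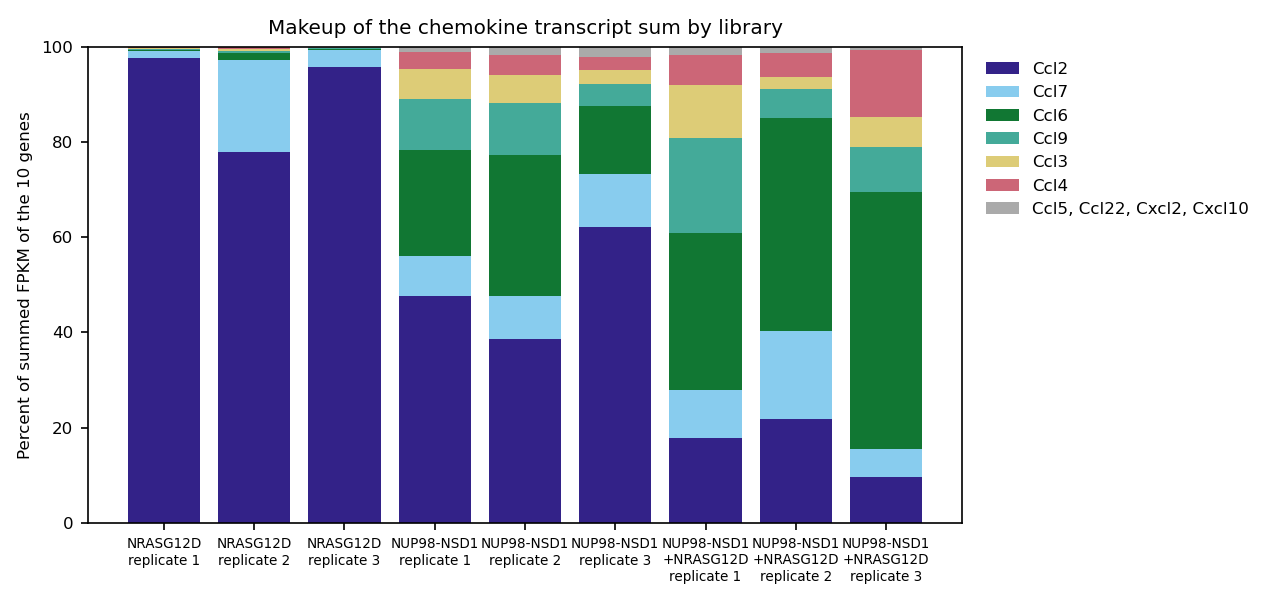
Makeup of the summed FPKM of the 10 chemokine genes in each of the 9 libraries. Bars are shares in percent of that library's sum, stacked by gene. Ccl2 fills 77.9% to 97.7% of the NRASG12D bars and 9.58% to 21.8% of the NUP98-NSD1+NRASG12D bars, where Ccl6 takes the largest share.

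The order of the levels followed the same shift. In NRASG12D cells Ccl2 ranked first among the 10 genes and exceeded 99.2% of all tested genes by its mean. Ccl7 came next, and from Ccl7 down to Ccl22 every neighbouring pair overlapped in range. NUP98-NSD1 cells had Ccl2 first, then Ccl6 and then Ccl7, with no overlap between Ccl2 and Ccl6 or between Ccl6 and Ccl7. Below them Ccl7, Ccl9, Ccl3 and Ccl4 overlapped with their neighbours, and Ccl5 lay apart from both Ccl4 above and Cxcl2 below. In NUP98-NSD1+NRASG12D cells Ccl6 had the highest mean and was the 14th most abundant of all gene identifiers. The first 6 genes, Ccl6, Ccl2, Ccl7, Ccl4, Ccl9 and Ccl3, overlapped with their neighbours there. Ccl22 was the lowest, with a range below that of its neighbour Cxcl10.

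Ccl2 and Ccl7 encode the monocyte chemoattractants MCP-1 and MCP-3, ligands of the receptor Ccr2. The genes are neighbours on chromosome 11 (GRCm38), Ccl2 (ENSMUSG00000035385.5) from 82035571 to 82037453 and Ccl7 (ENSMUSG00000035373.2) from 82045712 to 82047525, with 8258 bp between them. Ccl2 had 382, 740 and 452 FPKM in NRASG12D, 533, 468 and 653 FPKM in NUP98-NSD1, and 158, 1463 and 631 FPKM in NUP98-NSD1+NRASG12D libraries. All 3 groups overlapped, and the lowest and the highest value both came from NUP98-NSD1+NRASG12D. The log2 fold change of NUP98-NSD1 against NRASG12D was 0.12, with a 95% confidence interval of -0.47 to 0.70 and a limma adjusted p of 0.713. It is taken on log2(FPKM + 1), as are all fold changes here, which understates changes of low genes. Neither comparison of NUP98-NSD1+NRASG12D called Ccl2, at log2 fold changes of 0.07 against NRASG12D (limma, adjusted p = 0.95) and -0.05 against NUP98-NSD1 cells (limma, adjusted p = 0.984).

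Ccl7 differed from its neighbour in the NRASG12D group, where it had 6.03, 183 and 17.2 FPKM. The NUP98-NSD1 libraries had 92.3, 111 and 118 FPKM, and the NUP98-NSD1+NRASG12D libraries 89.6, 1247 and 391 FPKM. Replicate 2 of NRASG12D stood above all 3 NUP98-NSD1 libraries, while its companions stood below them. The log2 fold change of NUP98-NSD1 against NRASG12D was 1.91 (standard error 1.05, limma adjusted p = 0.165), and that of NUP98-NSD1+NRASG12D against NRASG12D was 3.63 (standard error 1.35, limma adjusted p = 0.0712). Without replicate 2 of NRASG12D these became 3.25 (limma, adjusted p = 0.00293) and 4.97 (limma, adjusted p = 0.0212). Without replicate 1 of NUP98-NSD1+NRASG12D the latter was 4.61 (limma, adjusted p = 0.0482). A gene of the opposite strand, Gm17268, overlaps Ccl2 in the annotation and was listed at 0 in all 9 libraries.

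Ccl3, Ccl4, Ccl6 and Ccl9 form the inflammatory part of the cluster farther along chromosome 11. Ccl3 and Ccl4 encode MIP-1α and MIP-1β, which attract monocytes and other leukocytes, and Ccl6 and Ccl9 are rodent chemokines that bind Ccr1. Ccl3 (ENSMUSG00000000982.5, 83647844 to 83649355) had 0.837, 2.59 and 0.414 FPKM in NRASG12D, 70.5, 71.4 and 30.5 FPKM in NUP98-NSD1, and 99.1, 168 and 423 FPKM in NUP98-NSD1+NRASG12D libraries. The 3 groups did not overlap and were ordered NRASG12D, NUP98-NSD1, NUP98-NSD1+NRASG12D. Ccl4 (ENSMUSG00000018930.3, 83662584 to 83664683) had 1.09, 3.65 and 0.417 FPKM in NRASG12D, 39.9, 51.1 and 29.1 FPKM in NUP98-NSD1, and 56.2, 335 and 929 FPKM in NUP98-NSD1+NRASG12D cells. It showed the same order without overlap. Ccl9 (ENSMUSG00000019122.8, 83572919 to 83578636) had 0.635, 4.89 and 0.677 FPKM in NRASG12D, 120, 133 and 47.7 FPKM in NUP98-NSD1 and 177, 415 and 624 FPKM in NUP98-NSD1+NRASG12D cells, again without overlap between any groups.

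Ccl6 (ENSMUSG00000018927.3, 83587882 to 83593087) reached the highest levels of the family. The NRASG12D libraries had 0.226, 14.9 and 0.995 FPKM, the NUP98-NSD1 libraries 249, 360 and 151 FPKM, and the NUP98-NSD1+NRASG12D libraries 295, 2997 and 3550 FPKM. Replicate 1 of NUP98-NSD1+NRASG12D lay inside the range of NUP98-NSD1, so these groups overlapped, and both lay above NRASG12D. Within NRASG12D, Ccl6 was 65.9 times higher in replicate 2 than in replicate 1. E230016K23Rik, which overlaps Ccl6 on the other strand, did not exceed 0.885 FPKM in any library.

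All 4 genes passed the test in both comparisons with NRASG12D cells, in which 42.2% (NUP98-NSD1) and 24.2% (NUP98-NSD1+NRASG12D) of all tested genes were called higher. Against NRASG12D, the NUP98-NSD1 cells had log2 fold changes of 4.70 for Ccl3 (standard error 0.43, limma adjusted p = 0.000536), 4.06 for Ccl4 (0.42, adjusted p = 0.000866), 6.14 for Ccl6 (0.90, adjusted p = 0.00225) and 5.19 for Ccl9 (0.58, adjusted p = 0.00104). The NUP98-NSD1+NRASG12D cells had 6.52 for Ccl3 (standard error 0.57, limma adjusted p = 0.000290), 6.77 for Ccl4 (0.98, adjusted p = 0.00216), 8.76 for Ccl6 (1.23, adjusted p = 0.00196) and 7.15 for Ccl9 (0.63, adjusted p = 0.000302). These calls held in all 13 alternative fits of each comparison. Set against NUP98-NSD1 cells, the fold changes of NUP98-NSD1+NRASG12D were 1.82, 2.71, 2.61 and 1.96 for Ccl3, Ccl4, Ccl6 and Ccl9, with limma adjusted p-values of 0.101, 0.126, 0.142 and 0.0777. None of the 4 passed the threshold there, where 2.30% of all tested genes were called higher, although Ccl3, Ccl4 and Ccl9 did not overlap. Without replicate 1 of NUP98-NSD1+NRASG12D all 4 passed, with log2 fold changes of 2.29 for Ccl3 (limma, adjusted p = 0.0381), 3.80 for Ccl4 (0.0102), 3.77 for Ccl6 (0.00732) and 2.46 for Ccl9 (0.0260).

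**Figure D2:**
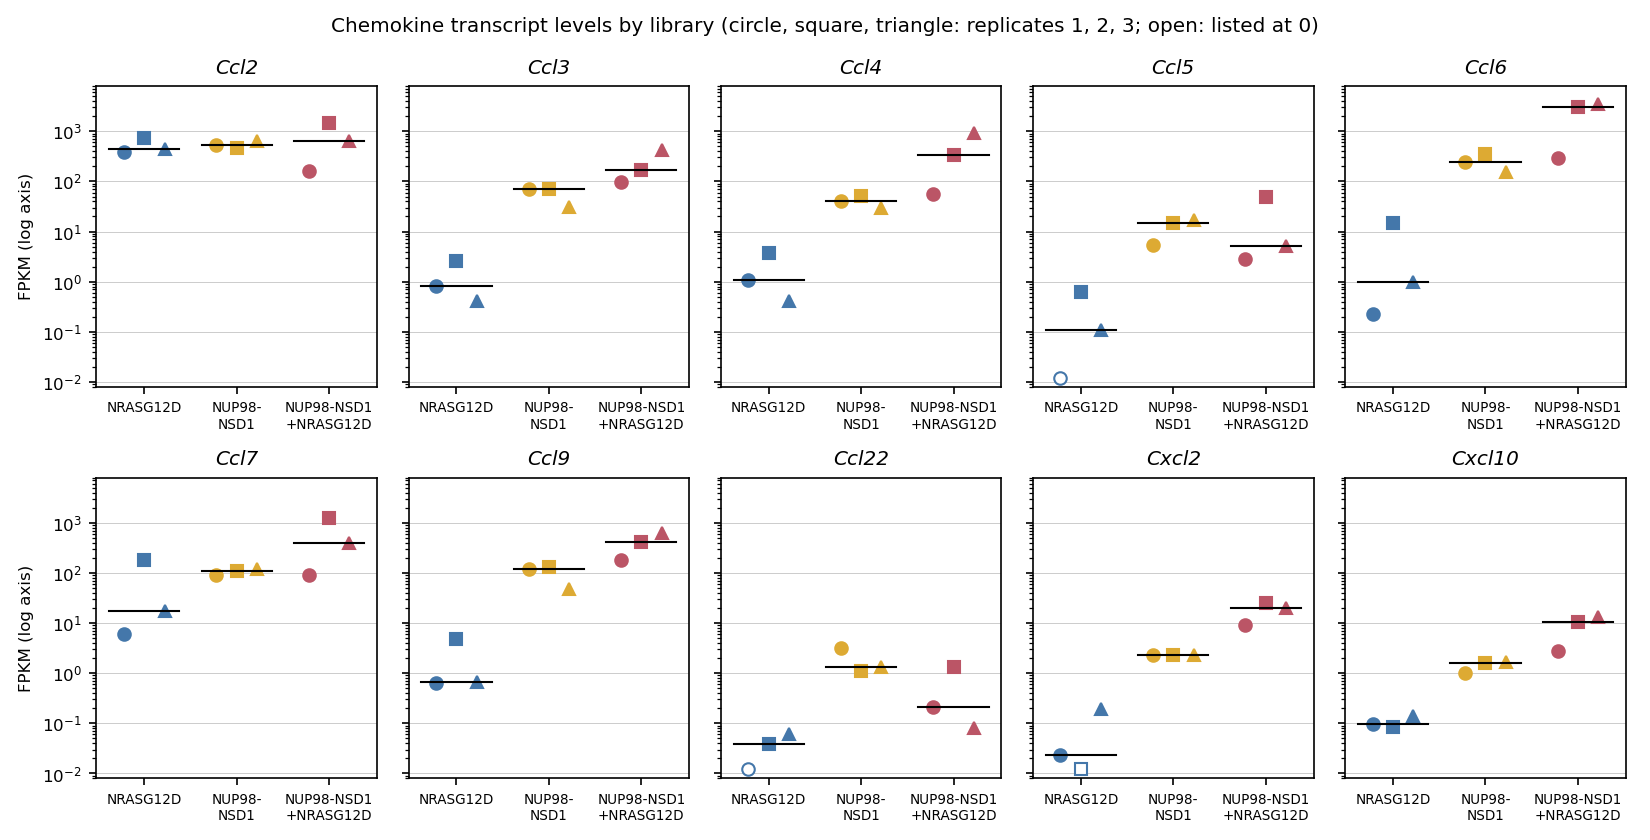
FPKM of the 10 chemokine genes by library, on a log axis, with 1 panel per gene and horizontal lines at group medians. Symbols mark replicates 1, 2 and 3, and open symbols on the floor of a panel are values listed at 0. Ccl3, Ccl4, Ccl9, Cxcl2 and Cxcl10 are ordered across the 3 groups without overlap, and Ccl2 is not.

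Ccl5 encodes RANTES, a ligand of Ccr1 best known from T cells and NK cells, and Ccl22 encodes a ligand of Ccr4 made by dendritic cells and macrophages. Ccl5 (ENSMUSG00000035042.2, chromosome 11 from 83525778 to 83530518) was listed at 0 in replicate 1 of NRASG12D and had 0.636 and 0.111 FPKM in the others. It had 5.27, 14.9 and 16.9 FPKM in NUP98-NSD1 and 2.84, 49.9 and 5.09 FPKM in NUP98-NSD1+NRASG12D libraries. Both groups with NUP98-NSD1 lay above NRASG12D and overlapped with each other. Ccl5 rose in NUP98-NSD1 against NRASG12D cells by 3.31 on the log2 scale (standard error 0.41, limma adjusted p = 0.00135). Against NRASG12D, NUP98-NSD1+NRASG12D cells had 3.12 (standard error 0.90, limma adjusted p = 0.0324). With a pseudocount of 0.1 these were 5.47 and 5.19. The latter call was lost in 4 of 6 fits that left out a library, which were those without any 1 of the NRASG12D libraries (limma, adjusted p = 0.0687 to 0.0956) or without replicate 3 of NUP98-NSD1+NRASG12D (limma, adjusted p = 0.0515). Between the groups with NUP98-NSD1 it was -0.19 (limma, adjusted p = 0.946). Of the 6 T and NK cell markers only Nkg7 passed the filter on low values, at 147, 153 and 29.8 FPKM in NUP98-NSD1 and 305, 86.9 and 8.34 FPKM in NUP98-NSD1+NRASG12D libraries, while Cd3e did not exceed 0.0354 FPKM in any library.

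Ccl22 (ENSMUSG00000031779.3, chromosome 8 from 94745590 to 94751699) had the lowest mean of the 10 genes in NRASG12D and NUP98-NSD1+NRASG12D cells, and the 9th highest in NUP98-NSD1 cells, above Cxcl10. The NRASG12D libraries had 0 (as listed), 0.0392 and 0.0617 FPKM, the NUP98-NSD1 libraries 3.14, 1.09 and 1.33 FPKM and the NUP98-NSD1+NRASG12D libraries 0.213, 1.35 and 0.0809 FPKM. It was highest in NUP98-NSD1 cells, and only replicate 2 of NUP98-NSD1+NRASG12D reached their range. Its log2 fold change in NUP98-NSD1 against NRASG12D cells was 1.40 (standard error 0.26, limma adjusted p = 0.00498). In NUP98-NSD1+NRASG12D cells it was 0.49 against NRASG12D (limma, adjusted p = 0.226) and -0.90 against NUP98-NSD1 cells (limma, adjusted p = 0.203). With a pseudocount of 0.1 the 3 values were 3.75, 1.73 and -2.02. With Ccl2 and Ccl5, it was one of the members whose fold change between these 2 groups was negative.

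Cxcl2 and Cxcl10 lie on chromosome 5 and are the 2 CXC members. Cxcl2, or MIP-2, attracts neutrophils through Cxcr2, and Cxcl10, or IP-10, is an interferon-induced ligand of Cxcr3. Cxcl2 (ENSMUSG00000058427.10, 90903871 to 90905938) had 0.0232, 0 (as listed) and 0.192 FPKM in NRASG12D, 2.34, 2.27 and 2.28 FPKM in NUP98-NSD1, and 9.33, 24.9 and 20.2 FPKM in NUP98-NSD1+NRASG12D libraries. The NUP98-NSD1 values lay within 1.03-fold of each other, and the 3 groups did not overlap. Cxcl10 (ENSMUSG00000034855.13, 92346638 to 92348889) had 0.0990, 0.0853 and 0.141 FPKM in NRASG12D, 0.997, 1.63 and 1.64 FPKM in NUP98-NSD1 and 2.82, 10.6 and 13.1 FPKM in NUP98-NSD1+NRASG12D libraries, also without overlap. In NUP98-NSD1+NRASG12D cells both overlapped with Ccl5 and lay below the other 6 chromosome 11 members in mean level.

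Cxcl2 rose with a log2 fold change of 1.62 in NUP98-NSD1 against NRASG12D (standard error 0.13, limma adjusted p = 0.000325) and of 4.06 in NUP98-NSD1+NRASG12D against NRASG12D cells (standard error 0.34, limma adjusted p = 0.000260). It was the only member called in NUP98-NSD1+NRASG12D when set against NUP98-NSD1, at 2.44 (standard error 0.34, limma adjusted p = 0.0107). With a pseudocount of 0.1, the first 2 of these fold changes were 3.97 and 6.78. Without replicate 3 of NUP98-NSD1 the last was 2.43 with a limma adjusted p of 0.0517. For Cxcl10 the fold changes in the same order were 1.12 (standard error 0.16, limma adjusted p = 0.00196), 2.95 (0.47, adjusted p = 0.00325) and 1.83 (0.48, adjusted p = 0.0635). With a pseudocount of 0.1 they were 2.85, 5.17 and 2.32. The first had a limma adjusted p of 0.0998 after quantile normalization, where the fold change was 0.48, and of 0.0797 with all 9 libraries in 1 fit. The last was 2.41 without replicate 1 of NUP98-NSD1+NRASG12D (limma, adjusted p = 0.00564). Of the stretches of 50 bases in Cxcl2 transcripts, 5.84% also occur in Cxcl3, whose level was at most 0.289 FPKM in 7 libraries and 4.12 and 4.29 FPKM in replicates 2 and 3 of NUP98-NSD1+NRASG12D. For Cxcl10, 3.59% are shared with Art3, which overlaps it on the other strand and did not exceed 0.992 FPKM.

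The sequences before these 2 genes are shown because they belong to the 2 CXC members and each holds more than 1 match to letters of NF-kB type. RefSeq promoter windows (GRCm38.p6, 250 bases before and 50 after the start site) were found for 6 of the 10 members, Ccl3, Ccl6, Ccl9, Ccl22, Cxcl2 and Cxcl10. The printed stretches end before the first annotated start and run 5′ to 3′ on the gene's strand, which is plus for Cxcl2 (chr5:90903649-90903870) and minus for Cxcl10 (chr5:92348890-92349139). Capitals mark matches on either strand to an NF-kB type (GGG, any 3 bases, TTCC), an interferon response type (GAAA, any 2 bases, GAAA) and an AP-1 type (TGA, any base, TCA).
Cxcl2: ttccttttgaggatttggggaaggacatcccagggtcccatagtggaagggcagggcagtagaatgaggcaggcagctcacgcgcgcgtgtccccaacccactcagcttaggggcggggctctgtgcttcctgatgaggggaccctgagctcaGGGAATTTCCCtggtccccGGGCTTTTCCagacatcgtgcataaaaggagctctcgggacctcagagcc
Cxcl10: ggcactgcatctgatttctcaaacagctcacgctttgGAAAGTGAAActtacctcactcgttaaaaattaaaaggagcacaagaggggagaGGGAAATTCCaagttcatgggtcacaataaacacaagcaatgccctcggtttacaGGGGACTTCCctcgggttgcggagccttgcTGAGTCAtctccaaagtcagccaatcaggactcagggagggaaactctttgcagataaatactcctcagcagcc
In Cxcl2 the first run of capitals holds 2 overlapping NF-kB-type matches, 1 on each strand, that begin 97 and 96 bases before the start site, and the second begins 78 bases before it. In Cxcl10 the interferon-type match begins 213 bases before the start site, the NF-kB-type matches 159 and 104 bases before it, and the AP-1-type match 74 bases before it. The NF-kB-type letters occur in 5.56% of 32851 RefSeq windows, the interferon type in 3.44% and the AP-1 type in 7.81%. Among the other 4 windows, Ccl9 held an NF-kB-type match 35 bases and an AP-1-type match 53 bases before its start, and Ccl3, Ccl6 and Ccl22 held none of the 3 motifs. These are matches of letters and not measurements of binding.

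Cxcl2 also stood out in its 3′ untranslated region. The AU-rich element TATTTAT occurs 7 times in its 734 bases, once each in Ccl3, Ccl4 and Ccl22, and 0 times in the other 6 members. Of 20535 genes searched on the transcript strand, 25.6% hold the element and 3.58% hold 3 or more copies, which is 1.99% among genes with untranslated regions of the members' lengths. The 30 bases with most copies in Cxcl2 lie at chr5:90905325-90905354 on the plus strand, and capitals mark 4 of them in overlapping pairs.
Cxcl2: ctTATTTATTTATctatgTATTTATTTATt
Elements of this kind are bound by tristetraprolin, encoded by Zfp36, which promotes decay of the mRNA. Zfp36 itself had 7.60, 10.3 and 6.47 FPKM in NRASG12D, 138, 90.5 and 75.3 FPKM in NUP98-NSD1, and 67.6, 78.7 and 46.2 FPKM in NUP98-NSD1+NRASG12D libraries. Zfp36 was lowest in NRASG12D, as was Cxcl2, while its highest value was in a NUP98-NSD1 library.

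Counted together, 8 of the 10 members were called higher in NUP98-NSD1 than in NRASG12D cells and 0 lower, where 42.2% of all tested genes were called higher and 9.98% lower. Of these 8, Ccl5, Ccl22, Cxcl2 and Cxcl10 passed the filter only through the groups where they were high and so had to differ. Ccl3, Ccl4, Ccl6 and Ccl9 did not reach 1 FPKM in all 3 NRASG12D libraries and also needed the other groups to pass. Only Ccl2 and Ccl7 did not need them, and neither was called, so the count is a description. The same 8 members did not overlap between these groups, against 50.7% of all tested genes that lay higher without overlap. In NUP98-NSD1+NRASG12D against NRASG12D cells 7 were called higher, the same without Ccl22, and 0 lower, where 24.2% of all tested genes were called higher and 14.1% lower. Ccl2 and Ccl7 were again not called, so this count is likewise a description. Here 8 members, Ccl22 included, lay higher without overlap, as did 38.7% of all tested genes. Both comparisons share the NRASG12D libraries and are not independent. The median log2 fold change of all 10 members, to which the limit of the filter also applies, was 2.61 and 3.84 in these comparisons. That of all tested genes was 0.27 and 0.23. Median-ratio scaling moved the latter to -0.01 and 0.03, and left 8 and 7 members called higher, beside 22.7% and 19.8% of all tested genes. Quantile normalization left 7 and 7 members, beside 19.4% and 16% of all tested genes. With a pseudocount of 0.1 the members' median was 4.43 and 5.99.

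When NUP98-NSD1+NRASG12D was set against NUP98-NSD1, 1 of 10 members was called higher and 0 lower, where 2.30% of all tested genes were called higher and 6.31% lower. The members Ccl3, Ccl4, Ccl9, Cxcl2 and Cxcl10 lay higher without overlap, as did 11.6% of all tested genes. Over all 10 members the median log2 fold change was 1.83, against -0.06 for all tested genes. The count of members depended on single libraries. Without replicate 1 of NUP98-NSD1+NRASG12D 7 members were called higher, together with 6.48% of all tested genes, and without replicate 3 of NUP98-NSD1 0 were called. In that fit, 283 genes were called in all. The design is too small for exact permutation tests of single genes, whose smallest two-sided p for 3 libraries against 3 is 0.1.

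**Figure D3:**
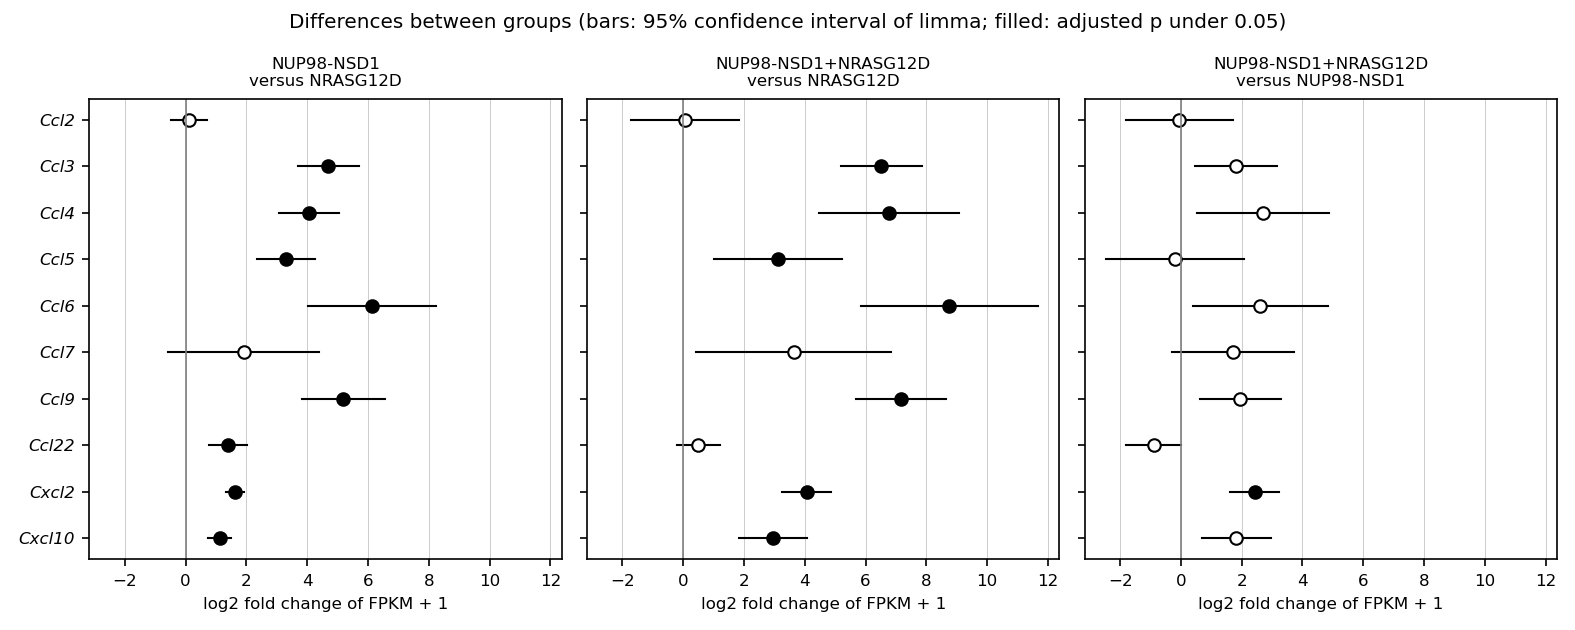
Log2 fold changes of FPKM + 1 for the 10 chemokine genes in the 3 comparisons. Points are limma estimates, bars their 95% confidence intervals and filled points those with an adjusted p under 0.05. The panels hold 8, 7 and 1 filled points, and Ccl2 is near 0 in all of them.

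The spread within NUP98-NSD1+NRASG12D followed 2 patterns. Replicate 2 was the highest of its group for Ccl2, Ccl5, Ccl7, Ccl22 and Cxcl2, and replicate 3 for Ccl3, Ccl4, Ccl6, Ccl9 and Cxcl10. Replicate 1 was the lowest for 9 of the 10 members, with Ccl22 as the exception. On chromosome 11 the pattern changed with position. Ccl2 and Ccl7 belong to a cluster in which Ccl12 and Ccl8, ligands outside the 10 genes, follow after 54319 and 11784 bp. The 5 members from Ccl5 to Ccl4 lie 1478252 bp beyond Ccl7, with gaps of 42400, 9245, 54756 and 13228 bp between neighbours.

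Relative to the NUP98-NSD1 mean, replicate 2 differed by log2 values of 1.42 for Ccl2, 3.54 for Ccl7, 5.33 for Ccl12 and 6.13 for Ccl8. Replicate 3 differed by 0.21, 1.87, 2.71 and 0.99 for the same genes, so it was lower throughout this cluster. In the second cluster, replicate 3 differed by 2.76 for Ccl9, 3.89 for Ccl6, 2.95 for Ccl3 and 4.54 for Ccl4, and replicate 2 by 2.17, 3.65, 1.63 and 3.07. Ccl5, at the edge of that cluster, had the reverse, with 2.07 in replicate 2 and -0.99 in replicate 3. These are differences between single libraries and were not tested.

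**Figure D4:**
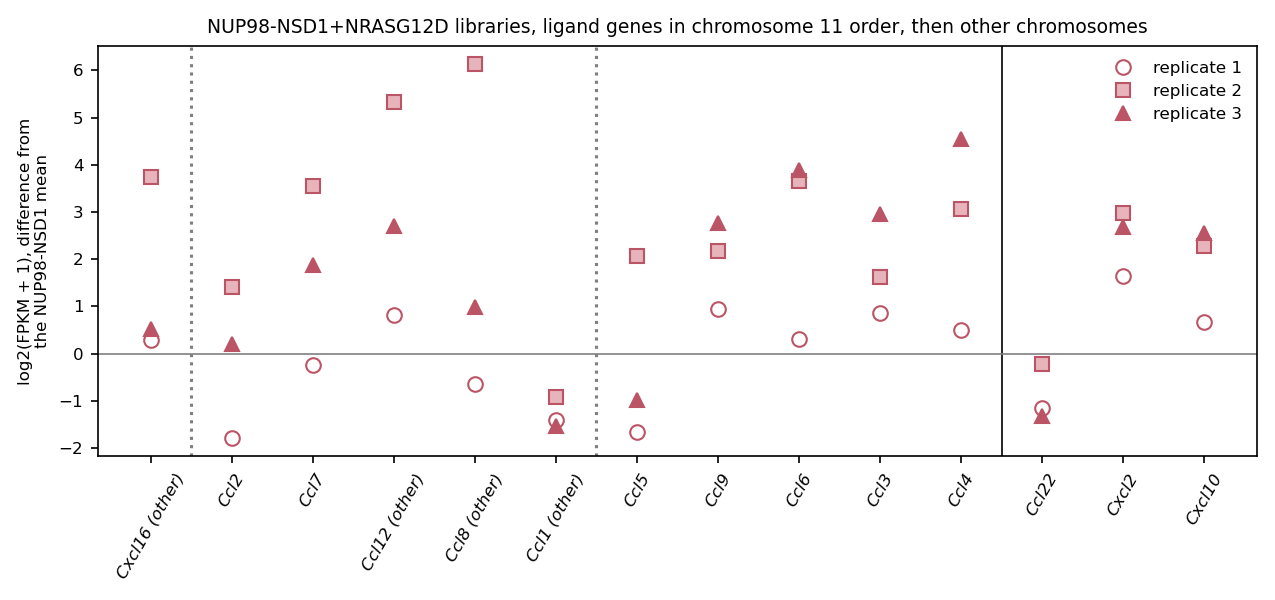
Levels in the 3 NUP98-NSD1+NRASG12D libraries as the difference of log2(FPKM + 1) from the mean of the NUP98-NSD1 libraries. Genes are in chromosome 11 order up to the solid line, with dotted lines at the largest gaps, and the label "other" marks ligands outside the 10 genes. Replicate 2 leads from Ccl2 to Ccl8, and replicate 3 leads from Ccl9 to Ccl4.

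Of 29 other chemokine ligand genes, 10 passed the filter on low values. In NUP98-NSD1 against NRASG12D cells 7 of them were called higher and 0 lower, where 42.2% of all tested genes were called higher. Of these 7, all but Pf4 were under 1 FPKM in every NRASG12D library and passed only through the groups where they were high. Pf4 reached 1 FPKM in replicate 2 of NRASG12D only and also needed the other groups, so the count is a description. Ccl12 and Ccl8, which encode the monocyte chemoattractants MCP-5 and MCP-2, changed most along with Ccl24 and Pf4. Ccl8 was listed at 0 in all NRASG12D libraries and had 15.5, 11.1 and 2.75 FPKM in NUP98-NSD1 and 4.78, 635 and 17.1 FPKM in NUP98-NSD1+NRASG12D libraries. The NRASG12D libraries had 0 (as listed), 0.139 and 0 (as listed) FPKM of Ccl12, against 15.0, 13.7 and 10.3 FPKM in NUP98-NSD1 and 23.4, 557 and 90.0 FPKM in NUP98-NSD1+NRASG12D. Ccl8 and Ccl12 thus shared the high replicate 2 of Ccl2 and Ccl7. Pf4, platelet factor 4, had 0.187, 3.96 and 0.550 FPKM in NRASG12D, 29.8, 32.7 and 22.2 FPKM in NUP98-NSD1 and 62.8, 1157 and 111 FPKM in NUP98-NSD1+NRASG12D libraries, a log2 fold change of 3.79 (limma, adjusted p = 0.00164) and then 6.60 against NRASG12D (limma, adjusted p = 0.00381). Ppbp, Ccl17, Cxcl16 and Ccl24 were the others called higher in NUP98-NSD1 cells, at log2 fold changes of 1.43, 1.04, 1.00 and 3.93. Under quantile normalization Cxcl16 had 0.45 and was no longer called. Ccl1, Ccl25 and Ccl27a, at 0.06, 0.14 and 0.25, were not called.

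In NUP98-NSD1+NRASG12D against NRASG12D cells 5 of the 10 other ligands were called higher, Ccl8, Ccl12, Ccl25, Pf4 and Ppbp. Ccl1 was called lower with a log2 fold change of -1.23 (limma, adjusted p = 0.00837). Of all tested genes, 24.2% were called higher and 14.1% lower. Of the 5, only Ccl25 passed the filter without the groups where it was high. Its log2 fold change of 0.66 was 0.4 under quantile normalization and 0.47 under median-ratio scaling, where it was no longer called. Against NUP98-NSD1 cells 0 were called higher and 2 lower, where 2.30% and 6.31% of all tested genes were. The 2 were Ccl1 at -1.29 (limma, adjusted p = 0.0180) and Ccl17, a ligand of Ccr4 like Ccl22, at -1.46 (limma, adjusted p = 0.0173). Ccl17 had 2.77, 1.79 and 2.84 FPKM in NUP98-NSD1 and 0.186, 0.646 and 0 (as listed) FPKM in NUP98-NSD1+NRASG12D libraries. Both ligands of Ccr4 were highest in NUP98-NSD1 cells. Over the fits that left out a library the count of other ligands called in the last comparison ran from 0 to 5. It was 0 without replicate 1 or 3 of NUP98-NSD1 or replicate 3 of NUP98-NSD1+NRASG12D, 1 without replicate 2 of NUP98-NSD1, 5 without replicate 1 and 4 without replicate 2 of NUP98-NSD1+NRASG12D.

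Of 24 receptor genes, 8 passed the filter, among them the receptors of several members. In NUP98-NSD1 against NRASG12D cells 6 were called higher and 0 lower, and in NUP98-NSD1+NRASG12D against NRASG12D cells 6 were called higher and 2 lower. Of all tested genes, 42.2% and 24.2% were called higher in these comparisons, and 9.98% and 14.1% lower. Some receptors called higher, Cxcr2 among them, were under 1 FPKM in every NRASG12D library and passed only through the other groups. Ccr2, which binds Ccl2 and Ccl7, had 1.71, 6.91 and 3.72 FPKM in NRASG12D, 108, 64.6 and 77.9 FPKM in NUP98-NSD1 and 174, 83.2 and 119 FPKM in NUP98-NSD1+NRASG12D libraries. It did not overlap between NRASG12D and the other groups, with log2 fold changes of 4.15 (limma, adjusted p = 0.000531) and 4.70 (limma, adjusted p = 0.000351). Thus the receptor of Ccl2 differed between groups in which Ccl2 itself was not called.

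Cxcr2, the receptor of Cxcl2, had 0.0686, 0.0373 and 0.0411 FPKM in NRASG12D, 4.26, 3.37 and 2.26 FPKM in NUP98-NSD1 and 12.0, 7.25 and 11.8 FPKM in NUP98-NSD1+NRASG12D libraries. Like Cxcl2, it was called in all 3 comparisons, with log2 fold changes of 2.01 (limma, adjusted p = 0.000590), 3.40 (limma, adjusted p = 0.000118) and 1.39 (limma, adjusted p = 0.0263). It was the only receptor called higher in NUP98-NSD1+NRASG12D than in NUP98-NSD1 cells, and 2 were called lower. Of all tested genes, 2.30% were called higher and 6.31% lower there. The 2 receptors called lower were Ackr1, a scavenging receptor of many chemokines, at -3.77 (limma, adjusted p = 0.0170) and Cx3cr1, the fractalkine receptor, at -1.65 (limma, adjusted p = 0.0136). Ackr1 was also called lower against NRASG12D, at -4.50 (limma, adjusted p = 0.00761). The count of 3 receptors called in NUP98-NSD1+NRASG12D against NUP98-NSD1 was 0 without replicate 1 or 2 of NUP98-NSD1, 1 without its replicate 3 or without replicate 3 of NUP98-NSD1+NRASG12D, and 5 without replicate 1 of NUP98-NSD1+NRASG12D. Of all tested genes, 3.09%, 2.24% and 2.1% were called without replicates 1, 2 and 3 of NUP98-NSD1. Without replicates 1 and 3 of NUP98-NSD1+NRASG12D, 18.6% and 3.66% were called.

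All 16 genes of NF-kB subunits and inhibitors passed the filter. In NUP98-NSD1 against NRASG12D cells 5 were called higher and 3 lower, and in NUP98-NSD1+NRASG12D against NRASG12D cells 4 higher and 4 lower. Of all tested genes, 42.2% and 24.2% were called higher in these comparisons, and 9.98% and 14.1% lower. The balance turned under both other scalings, with 3 higher and 6 lower under each in the first comparison, and 4 higher with 7 lower (quantile) or 6 lower (median-ratio) in the second. Under quantile normalization 19.4% and 16% of all tested genes were called higher, of 45% and 38.7% called in all. Under median-ratio scaling 22.7% and 19.8% were called higher, of 46% and 38.8% called in all. Nfkbia, which encodes the inhibitor IκBα and is itself an NF-kB target, had 10.7, 18.9 and 12.4 FPKM in NRASG12D, 87.5, 66.3 and 36.3 FPKM in NUP98-NSD1 and 100, 176 and 402 FPKM in NUP98-NSD1+NRASG12D libraries. It was ordered without overlap across the 3 groups, as were Ccl3, Ccl4 and Ccl9, and its log2 fold changes against NRASG12D were 2.05 (limma, adjusted p = 0.00310) and 3.72 (limma, adjusted p = 0.00145). Bcl3, a nuclear member of the inhibitor family, had log2 fold changes of 2.00 and 2.26 against NRASG12D (limma, adjusted p = 0.000148 and 0.00405). Bcl3 was under 1 FPKM in every NRASG12D library and passed the filter only through the groups where it was high. Nfkbid, another nuclear inhibitor, was 1.27 higher in NUP98-NSD1 than in NRASG12D cells on the log2 scale (limma, adjusted p = 0.000887) and -1.18 in NUP98-NSD1+NRASG12D against NUP98-NSD1 cells (limma, adjusted p = 0.0180). Tnip1, an inhibitor of NF-kB activation, had 1.36 in NUP98-NSD1+NRASG12D against NRASG12D cells (limma, adjusted p = 0.00308). Without replicate 1 or replicate 2 of NUP98-NSD1 the first count was 5 in all. The single call of NUP98-NSD1+NRASG12D against NUP98-NSD1 was lost without any 1 of the NUP98-NSD1 libraries or without replicate 3 of NUP98-NSD1+NRASG12D, where 0 were called, while 5 and 4 were called without its replicates 1 and 2.

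The 12 interferon response genes all passed the filter, with 6 called higher in NUP98-NSD1 and 11 in NUP98-NSD1+NRASG12D against NRASG12D cells, and 0 lower. Of all tested genes, 42.2% and 24.2% were called higher in these comparisons. Ifit1, Ifit2, Ifit3, Mx1 and Rsad2 were under 1 FPKM in every NRASG12D library and passed only through the other groups. Irf7, a transcription factor of the interferon response, had 1.27, 1.78 and 1.42 FPKM in NRASG12D, 13.9, 27.5 and 40.6 FPKM in NUP98-NSD1 and 46.3, 295 and 76.0 FPKM in NUP98-NSD1+NRASG12D libraries. Its log2 fold changes against NRASG12D were 3.39 (limma, adjusted p = 0.000766) and 5.37 (limma, adjusted p = 0.000876). The ubiquitin-like Isg15 had 2.97 and 5.29 (limma, adjusted p = 0.00385 and 0.000976), Ifit2 2.69 in NUP98-NSD1 (limma, adjusted p = 0.000995) and Ifit3 4.55 in NUP98-NSD1+NRASG12D cells (limma, adjusted p = 0.00701). Within NUP98-NSD1+NRASG12D, Irf7, Isg15, Ifit2 and Ifit3 were highest in replicate 2, unlike Cxcl10, which was highest in replicate 3. Without replicates 1, 2 or 3 of NRASG12D, 5, 6 and 6 genes were called in NUP98-NSD1+NRASG12D against NRASG12D cells. In the contrast of both groups with NUP98-NSD1, limma called 0 of the 12, of which 6 had an unadjusted p under 0.05, and 3 were called without replicate 1 of NUP98-NSD1+NRASG12D.

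In NUP98-NSD1 against NRASG12D cells, 42.2% of all tested genes were called higher. Of 5 genes that control the decay of AU-rich mRNAs, 3 were called higher there. Zfp36 was the largest of these at a log2 fold change of 3.46 (limma, adjusted p = 0.000202), and it remained the only one called under both other scalings. Elavl1, which stabilises such mRNAs, and Zfp36l1 had 0.41 and 0.35 with the FPKM as deposited. In NUP98-NSD1+NRASG12D against NRASG12D cells Zfp36 was called at 2.82 (limma, adjusted p = 0.000315) and Zfp36l2, a relative of Zfp36, at -1.28 (limma, adjusted p = 0.0438). Of the groups with NUP98-NSD1, NUP98-NSD1+NRASG12D had a log2 fold change of -0.64 for Zfp36 (limma, adjusted p = 0.235), beside 2.44 for Cxcl2. Limma called 0 of the 5 genes there, of which 1 had an unadjusted p under 0.05, and 2 were called without replicate 1 of NUP98-NSD1+NRASG12D. Without replicate 1 of NRASG12D the first count was 1, and the count against NRASG12D was 1 without replicate 2 or 3 of NRASG12D or replicate 2 of NUP98-NSD1+NRASG12D.

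Sums of cell type markers also differed between the groups, in different directions for different cell types. The summed FPKM of 10 monocyte and macrophage markers lay between 40.7 and 54.0 in NRASG12D, between 444 and 874 in NUP98-NSD1 and between 1695 and 4681 in NUP98-NSD1+NRASG12D libraries. That of 8 neutrophil markers was 2.64 to 6.72, 531 to 969 and 2402 to 15881 in the same groups, with Camp, Ltf and Retnlg listed at 0 in all NRASG12D libraries. All 10 monocyte and macrophage markers and 6 of 8 neutrophil markers were called higher in both comparisons with NRASG12D. Of all tested genes, 42.2% (NUP98-NSD1) and 24.2% (NUP98-NSD1+NRASG12D) were. The sum of 9 mast cell markers lay between 35807 and 37805 in NRASG12D, between 28807 and 34848 in NUP98-NSD1 and between 778 and 4654 in NUP98-NSD1+NRASG12D libraries. Without Cpa3, left out after the data were seen because it was listed at 0 in NRASG12D, the sum of the other 8 was unaltered in NRASG12D, between 15394 and 20469 in NUP98-NSD1 and between 498 and 2833 in NUP98-NSD1+NRASG12D libraries. In NUP98-NSD1 against NRASG12D cells 3 of the 9 were called higher, Cpa3, Mcpt4 and Hdc, and 5 lower, Cma1, Tpsb2, Ms4a2, Kit and Tph1. In NUP98-NSD1+NRASG12D against NRASG12D cells 2 were called higher, Cpa3 and Hdc, and 7 lower. Both calls of Cpa3 rest on the values listed at 0 in NRASG12D. Of all tested genes, 9.98% and 14.1% were called lower in these comparisons. Replicate 1 of NUP98-NSD1+NRASG12D had the lowest monocyte, macrophage and neutrophil sums of its group, as it had the lowest level of 9 members. Replicate 2 of NRASG12D had the highest sums of both lists in its group, and also of every other marker list except that of B cells. The mast cell, megakaryocyte and erythroid lists were among these. The same library was highest for Ccl2, Ccl3, Ccl4, Ccl5, Ccl6, Ccl7 and Ccl9, so the match was not particular to the monocyte, macrophage and neutrophil lists. The highest libraries of the other groups did not match. In NUP98-NSD1, replicate 1 had the highest sums of both lists, at 874 and 969, and replicate 2 the highest chemokine sum, at 1215. In NUP98-NSD1+NRASG12D these were replicate 3, at 4681 and 15881, and replicate 2, at 6712. The part of these markers' cell types in the chemokine differences was not tested.

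**Figure D5:**
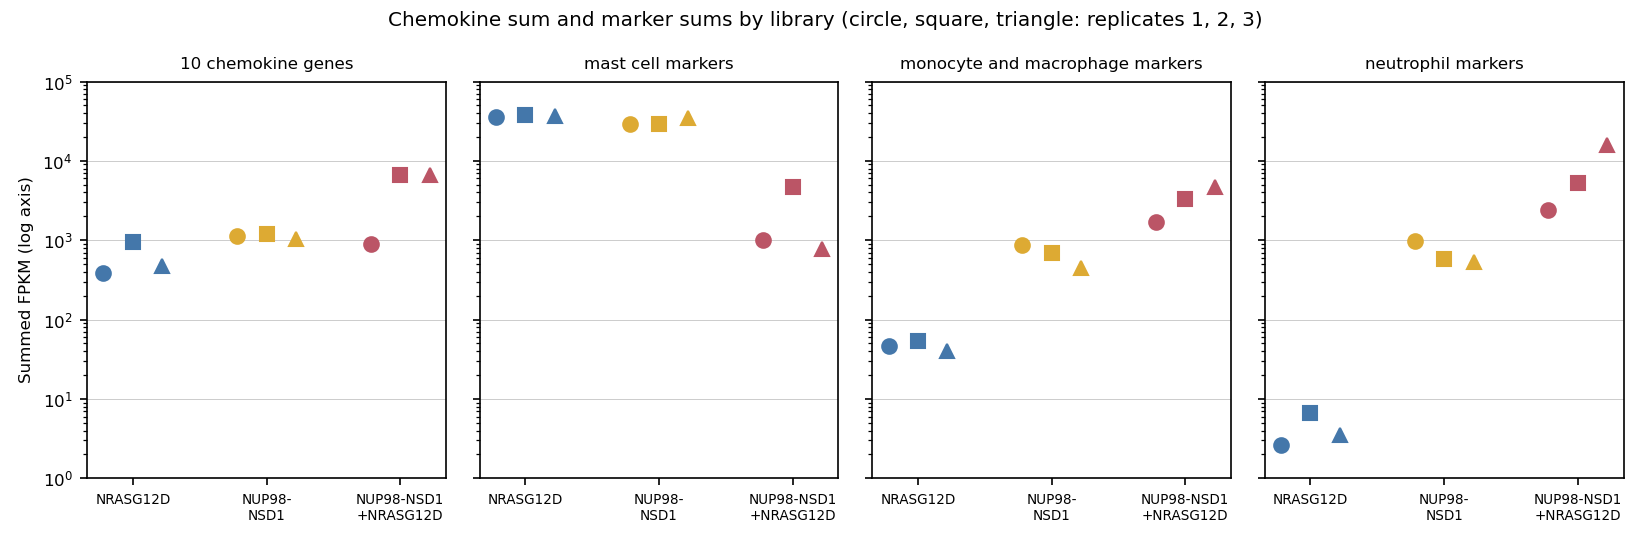
Summed FPKM of the 10 chemokine genes and of the markers of mast cells, monocytes and macrophages, and neutrophils in each library, on a log axis. Symbols mark replicates 1, 2 and 3. Both myeloid sums are lower in all NRASG12D libraries than in any other, the chemokine sums of NRASG12D and NUP98-NSD1+NRASG12D overlap, and the mast cell sum is lowest in NUP98-NSD1+NRASG12D.

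The genes whose levels followed the members most closely were also described. Over the 9 libraries, which share group differences and are no independent points, Pearson's r of log2(FPKM + 1) was highest with Clec5a for Ccl3 (0.995) and Ccl9 (0.993), with Fam20c for Ccl4 (0.994), with Ptgs1 for Ccl6 (0.994) and with Fcgr4 for Cxcl2 (0.996). Clec5a is a myeloid lectin receptor, and Fcgr4 is an Fc receptor of monocytes and neutrophils. The integrin gene Itgb2, shared by leukocytes, was among the 3 closest genes of both Ccl4 and Ccl6. Hk3, a hexokinase of myeloid cells, was among the 3 closest of both Ccl3 and Ccl9, as was Rps6kc1. For Ccl5 the closest gene was Cd40 (0.985), followed by Rab40c and Pml, and for Cxcl10 it was A530064D06Rik (0.989). Ccl2, Ccl7 and Ccl22 had lower values, 0.959 with Sppl2a, 0.955 with Atp2c1 and 0.959 with Serpinb9g.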

How the data were processed

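RNA-seq of 9 libraries was analysed, 3 per group, with groups taken from the labels. The authors deposited FPKM per gene from Cufflinks 2.2.1, and the submitters' processing notes also name STAR 2.7.2a. Per the study's methods, paired-end reads of 50 bp were aligned to GRCm38 with a GENCODE annotation. The authors tested counts with DESeq2, but count tables were not used here, so limma 3.58.1 (R 4.3.3) was fitted to log2(FPKM + 1) with an intensity trend. Of 55274 identifiers, the 13493 that reached 1 FPKM in 3 or more of the 9 libraries were tested. Each pair of groups was fitted on its own 6 libraries, and p-values were adjusted by Benjamini-Hochberg across every gene tested, and 0.05 was the threshold. Columns of status and confidence limits were not used.

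Depth was estimated from the steps between low FPKM in 3386 genes with 1 transcript of over 2500 bp, where 82.2% to 85.6% of low values lay within 0.1 of a whole step. It is therefore an estimate, and FPKM do not show the counts behind a value. FPKM assume that total RNA is comparable between libraries, so 2 other scalings were tried. The other alternatives were a pseudocount of 0.1, no filter, array weights, 1 fit of all 9 libraries, a replicate block and leaving out each library. The fit was tested on simulated data. The library protocol's strand was not given in the sources used here, so overlapping genes of opposite strands cannot be told apart.

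The 10 members and all gene lists were chosen with earlier results of these data known. Named genes were all 10 members, every other tested chemokine ligand, and of each remaining list genes among the 3 largest fold changes past the threshold in each comparison. A gene of the receptor list that this rule names is not reported here. For likeness, the 3 tested genes with the highest correlation were taken for each member. Promoters came from RefSeq and transcripts from GENCODE M21. Summaries used Python 3.11.15, numpy 2.4.6, pandas 2.3.3, scipy 1.17.1 and matplotlib 3.10.9.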

Additional observations from a re-analysis of the deposited data

How the results depend on the processing

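Over 13 alternatives for each of 10 members, 122 of 130 fits in NUP98-NSD1 against NRASG12D, 115 of 130 in NUP98-NSD1+NRASG12D against NRASG12D and 106 of 130 in NUP98-NSD1+NRASG12D against NUP98-NSD1 kept direction and side of the threshold. The cause of the changes below was not tested. Low levels of Ccl5, Ccl22 and Cxcl2 in NRASG12D are limited by depth. Deviations of same-numbered libraries correlated at -0.0277, 0.016 and 0.00211 on average, and 0, 2 and 1 of 6 libraries were closest to their own number. Groups of 3 libraries are too few to tell from this whether the replicate numbers mark pairs.

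In NUP98-NSD1 against NRASG12D, the fit of all 9 libraries called 3065 genes instead of 7036, 4 other ligands instead of 7, 3 receptors instead of 6, 3 NF-kB genes instead of 8, 3 interferon genes instead of 6 and 1 decay factor instead of 3. Without the filter 5 NF-kB genes and 1 decay factor were called, and quantile normalization and median-ratio scaling each called 1 decay factor. Of the calls, 80.9% were higher with FPKM as given, 43.2% under quantile normalization and 49.3% under median-ratio scaling. The log2 fold change of Ccl2 was -0.01 (quantile), -0.22 (median-ratio) and -0.00022 (array weights), and that of Cxcl10 was 0.48 (quantile) and 1.12 (all 9 libraries), no longer called by limma. Leaving out 1 library gave 5 to 10 NF-kB genes, 1 to 3 decay factors, and log2 fold changes of -0.08 to 0.39 for Ccl2 and 0.89 to 3.25 for Ccl7.

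In NUP98-NSD1+NRASG12D against NRASG12D, no filter gave 5 receptors instead of 8, 5 NF-kB genes instead of 8, 4 interferon genes instead of 11 and 1 decay factor instead of 2. Quantile and median-ratio scaling gave 7 interferon genes each, and the replicate block 1 decay factor. Of the calls, 63.1% were higher with FPKM as given, 41.3% under quantile normalization and 50.9% under median-ratio scaling. Ccl2 had -0.28 (quantile) and -0.17 (median-ratio). Ccl5, at 3.12, was not called without the filter. Ccl7, at 3.63, was called with all 9 libraries and with the replicate block (limma, adjusted p = 0.0331 and 0.000673). Leaving out 1 library gave 2941 to 6327 genes, 5 to 12 interferon genes, 1 to 3 decay factors, and log2 fold changes of -0.67 to 0.93 for Ccl2, 1.99 to 3.85 for Ccl5 and 2.61 to 4.97 for Ccl7.

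In NUP98-NSD1+NRASG12D against NUP98-NSD1, array weights called 3500 genes instead of 1162, 7 members instead of 1, 5 other ligands instead of 2, 5 receptors instead of 3, 8 NF-kB genes instead of 1, 7 interferon genes and 1 decay factor instead of 0. No filter gave 169 genes, and 0 members, other ligands, receptors and NF-kB genes. All 9 libraries in 1 fit gave 2251 genes, 2 members, 6 NF-kB genes, 1 interferon gene and 1 decay factor. The replicate block gave 2 members and 1 interferon gene, a pseudocount of 0.1 gave 1 other ligand, median-ratio scaling gave 0 NF-kB genes and quantile normalization 1 decay factor. Of the calls, 26.8% were higher with FPKM as given, 36.7% under quantile normalization and 32.6% under median-ratio scaling. Ccl2 had 0.05 (median-ratio) and 0.39 (array weights). With array weights Ccl3 had 2.12, Ccl4 3.57, Ccl6 3.11, Ccl7 2.03, Ccl9 2.05 and Cxcl10 2.28, all called. Cxcl2, at 2.44, was not called without the filter (limma, adjusted p = 0.0977), and Cxcl10, at 1.83, was called with all 9 libraries and with the replicate block (limma, adjusted p = 0.0192 and 0.0341). Leaving out 1 library gave 283 to 2509 genes, 0 to 7 members, 0 to 5 other ligands, receptors and NF-kB genes, 0 to 3 interferon genes and 0 to 2 decay factors. The log2 fold changes then ran from -0.79 to 0.81 for Ccl2, 1.25 to 2.29 for Ccl3, 1.79 to 3.8 for Ccl4, -1.33 to 0.54 for Ccl5 (also 0.00074, 0.09 and 0.21), 1.98 to 3.77 for Ccl6, 0.81 to 2.7 for Ccl7, 1.5 to 2.46 for Ccl9, 2.17 to 2.83 for Cxcl2 and 1.47 to 2.41 for Cxcl10.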
